A study of Homo sapiens with 6 samples.

Results

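The 10 genes studied here mark injury or repair of the kidney tubule and were followed in HK2 cells exposed to an organophosphate ester: HAVCR1, LCN2, CST3, CLU, SPP1, TIMP2, IGFBP7, VCAM1, CD24 and SOX9. They were chosen by symbol, and all 10 had 1 row each among the 25808 genes of the deposited table. HK2 cells are human proximal tubule cells of the kidney that were immortalised, and all libraries come from this 1 line. RNA was sequenced from 3 libraries of cells given 20 µM tris(2-butoxyethyl) phosphate (TBOEP), a flame retardant and plasticiser, for 48 hours after they had reached confluency, and from 3 libraries of cells given the solvent DMSO, for which the labels state neither dose nor time. The labels name no other agent or genotype. Whether the 3 replicates of a group were grown separately is not stated, so a p-value covers the spread among these libraries alone, and that spread may be technical. By its title the study asked how TBOEP relates to metabolism in the kidney.

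When tubule cells are injured they lose differentiated functions and switch on genes that healthy tubule expresses little or not at all. HAVCR1 and LCN2 encode KIM-1 and NGAL, which are shed or secreted into urine and are measured there as markers of acute kidney injury. TIMP2 and IGFBP7 proteins are measured together in urine as markers of tubular stress and cell cycle arrest. CST3 encodes cystatin C, a filtered protease inhibitor that the proximal tubule normally takes up. CLU and SPP1 encode the secreted proteins clusterin and osteopontin, while VCAM1, CD24 and SOX9 mark tubule cells in repair or in failed repair.

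Levels are given in FPKM, fragments scaled to gene length and to the depth of the library, and the difference between groups as a log2 fold change on log2(FPKM + 1), which understates the change of low genes. Library totals, recovered from the steps between values, ran from 32547856 to 35838657 reads in TBOEP and from 33536445 to 38247579 reads in DMSO libraries. A gene was tested if 3 or more of the 6 libraries held at least 1 FPKM of it, and called at a limma adjusted p under 0.05 over 9631 genes. Of the markers 9 were tested, and VCAM1 was below the filter. Of the proximal tubule's own markers, 17 of 22 had a row and 5 reached 1 FPKM in any library. PAX8, a transcription factor of renal epithelium, stood at 36.7 ± 0.204 FPKM in TBOEP and 37.1 ± 1.43 FPKM in DMSO libraries (mean ± SD, n = 3 per group), while CUBN, which encodes the endocytic receptor cubilin, was listed at 0 in all TBOEP libraries and at no more than 0.0125 FPKM in DMSO libraries, and LRP2, which encodes its partner megalin, had no row.

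TBOEP libraries held more SPP1 and CD24 mRNA and less CST3 and TIMP2 mRNA than DMSO libraries. HAVCR1, LCN2, CLU, IGFBP7 and SOX9 did not pass the test. Thus 2 markers rose, 2 fell and 5 were not called out of 9 tested, with a median log2 fold change of -0.041. Of all tested genes, 53.8% were called, 26.9% up and 26.9% down, with a median of -0.015. With each library centred on its median, 2115 genes were up and 3370 down, against 2592 up and 2586 down in the fit without centring. The share of tested markers called was 44.4%. Libraries of the groups did not overlap in 4 of 9 tested markers, 2 with TBOEP above and 2 with TBOEP below, and in 62.3% of all tested genes, 30.5% with TBOEP above and 31.8% with TBOEP below. The 4 called markers changed by 0.22 to 0.28 on the log2 scale, against a median absolute change of 0.30 over all called genes. In bulk RNA, fewer cells with a transcript and less of it per cell cannot be told apart.

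**Figure D1:**
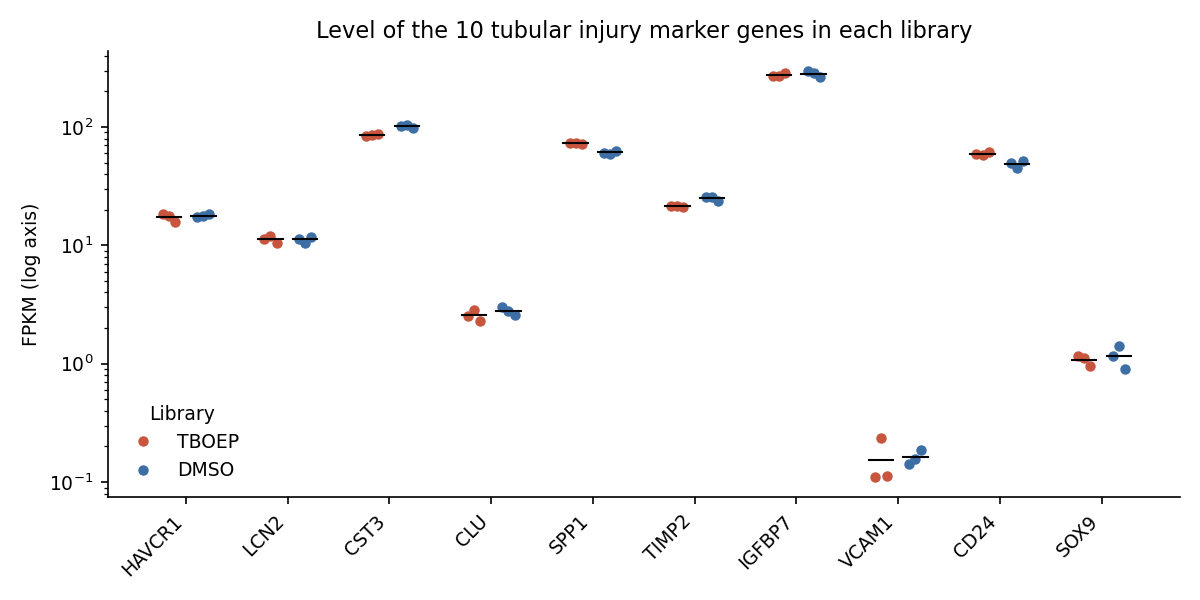
FPKM (log axis) of the 10 markers in each library; points are libraries, TBOEP in red and DMSO in blue, and bars are means of 3. The markers run from about 0.15 FPKM in VCAM1 to 265 FPKM and more in IGFBP7, and TBOEP points lie apart from DMSO points in CST3, SPP1, TIMP2 and CD24.

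The order of levels was the same in both groups: IGFBP7, CST3, SPP1, CD24, TIMP2, HAVCR1, LCN2, CLU, SOX9 and VCAM1 from high to low, and in neither group did the libraries of neighbours in this order overlap. IGFBP7 lay above 99.3% of all rows by mean FPKM, HAVCR1 above 90.8%, LCN2 above 87.6%, and VCAM1 above 42%. The order depends on the gene length by which the authors divided. The length recovered for SPP1 was 7250 bases, whereas its principal transcript in GENCODE 29 has 1581 bases. On that transcript's length SPP1 would stand at 334 FPKM in TBOEP and 281 FPKM in DMSO libraries, above CST3 at 94.8 FPKM in TBOEP and 112 FPKM in DMSO on its transcript of 3286 bases, and below IGFBP7 at 371 FPKM in TBOEP and 382 FPKM in DMSO libraries on its transcript of 1427 bases. HAVCR1, whose recovered length was 4856 bases against 1845 bases for its transcript, would stand at 45.5 FPKM in TBOEP and 46.8 FPKM in DMSO. The length cancels in a plain ratio of FPKM, but not in log2(FPKM + 1) or in the filter at 1 FPKM. With a pseudocount of 0.1 in place of 1, the log2 fold change of SOX9 was -0.083 in place of -0.052 and that of CLU -0.11 in place of -0.081, neither called.

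HAVCR1 and LCN2, the urinary markers of acute injury, did not pass the test. HAVCR1 (ENSG00000113249), a membrane receptor by which injured tubule cells engulf dying cells, stood at 18.3, 17.7 and 15.9 FPKM in TBOEP replicates 1 to 3, against 17.3, 17.7 and 18.3 FPKM in DMSO replicates 1 to 3. The groups overlapped, and TBOEP replicate 3 was the lowest of the 6 libraries. The log2 fold change was -0.039, with a 95% interval of -0.16 to 0.085 (limma adjusted p = 0.568). LCN2 (ENSG00000148346), which binds iron-carrying siderophores, stood at 11.4, 12.03 and 10.5 FPKM in TBOEP, against 11.4, 10.5 and 11.7 FPKM in DMSO libraries. The groups overlapped here as well, and the log2 fold change of 0.0075 had an interval of -0.13 to 0.14 (limma adjusted p = 0.926). The values rest on 2507 to 3216 reads for HAVCR1 and on 543 to 696 reads for LCN2 in a library. In a fit on values adjusted within each library for GC content and length of the transcript, termed the GC-adjusted fit, the log2 fold change of HAVCR1 was -0.27 and passed (adjusted p = 0.00321 by limma), while LCN2 was at 0.048 (limma adjusted p = 0.581). GC content and length were adjusted together, and their separate parts were not tested.

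LCN2 and VCAM1 are known targets of NF-kB, the transcription factor of the inflammatory response, and their promoters are shown because the levels of other NF-kB targets are set beside them. The 250 bases before the gene start are from RefSeq (GRCh38.p14), 5′ to 3′ on the gene's strand, with matches to the NF-kB consensus on either strand in capitals. The LCN2 stretch lies on the plus strand at chr9:128149203-128149452 and that of VCAM1 on the plus strand at chr1:100719492-100719741.
LCN2: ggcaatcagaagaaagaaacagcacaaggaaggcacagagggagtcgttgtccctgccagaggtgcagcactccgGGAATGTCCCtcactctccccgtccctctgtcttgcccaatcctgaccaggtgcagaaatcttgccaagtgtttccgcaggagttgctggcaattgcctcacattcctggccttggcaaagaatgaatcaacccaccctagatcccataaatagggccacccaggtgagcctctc
VCAM1: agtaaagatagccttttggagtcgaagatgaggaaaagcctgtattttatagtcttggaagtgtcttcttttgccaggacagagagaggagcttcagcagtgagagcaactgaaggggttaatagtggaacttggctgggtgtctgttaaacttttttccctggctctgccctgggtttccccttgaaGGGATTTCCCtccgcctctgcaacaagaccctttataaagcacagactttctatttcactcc
The match began 175 bases before the start in LCN2 and 62 bases before it in VCAM1. Of 35116 promoter stretches of this length, 9.96% held a match, a share of stretches and not of genes. Stretches of 6 of the 10 markers were examined (LCN2, VCAM1, CD24, SPP1, HAVCR1 and CST3), and of these CD24 held a match too. CD24 alone had several stretches, from different gene starts, and its stretch at chr6:106974040-106974289 held no match. No stretch of CLU, TIMP2, IGFBP7 or SOX9 was examined, so whether these hold a match is not known. A match is a description of the letters and not a binding site.

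VCAM1 (ENSG00000162692), an adhesion molecule of activated endothelium that also marks proximal tubule cells in failed repair, was near the limit of detection. It stood at 0.111, 0.237 and 0.112 FPKM in TBOEP, against 0.143, 0.158 and 0.188 FPKM in DMSO libraries. The reads behind these values were 24, 50 and 22 in TBOEP and 33, 32 and 41 in DMSO libraries. TBOEP replicate 2 was the highest and the other 2 TBOEP libraries the lowest, so the groups overlapped. With no filter on low values the log2 fold change was -0.014 (limma adjusted p = 0.917), a difference that cannot be resolved at this depth. ICAM1, a related adhesion molecule, stood at 31.2 ± 1.24 FPKM in TBOEP and 30.8 ± 1.63 FPKM in DMSO libraries, and ITGA4, a subunit of the integrin that binds VCAM1, was below the filter at 0.209 ± 0.0293 FPKM in TBOEP and 0.255 ± 0.0363 FPKM in DMSO (SD, n = 3 per group).

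NF-kB target genes moved in both directions: of 18 listed, 15 were tested, 5 rose, 6 fell and 4 were not called, with a median of -0.086. The share called was 73.3%, against 53.8% of all tested genes, both in the unadjusted fit. In the GC-adjusted fit, which called 47.8% of all genes, IL6 and 5 of the 6 genes that fell lost their calls. That fit called TNFAIP3 lower, at -0.26 (limma adjusted p = 0.00385), and TRAF1 lower, at -0.23 (limma adjusted p = 0.0435). SOD2, the mitochondrial superoxide dismutase, rose by 0.50 ± 0.04 in log2 units (SE; adjusted p = 1.52e-05 by limma) and the chemokine CCL20 by 0.49 ± 0.05 (limma adjusted p = 6.15e-05). SOD2 had no known GC content and was not part of the GC-adjusted fit. The NF-kB inhibitor NFKBIA rose by 0.25 ± 0.03 (limma adjusted p = 0.000144) and by 0.11 in the GC-adjusted fit. The cytokine IL6 rose by 0.20 ± 0.04 (limma adjusted p = 0.00193), a call lost in the GC-adjusted fit at 0.077 (limma adjusted p = 0.0609). CXCL8, the other gene that rose, was at 0.13 ± 0.04 (limma adjusted p = 0.02), and at 0.17 in the GC-adjusted fit. Its call was lost with no filter, quantile normalization, median centring and without TBOEP replicate 1. Of the 6 genes that fell, 5 were not called in the GC-adjusted fit: NFKB2, RELB, TNFAIP2, NFKBIE and BCL3. The largest fall among these was that of RELB, -0.28 (limma adjusted p = 0.00843), which was at 0.0037 in the GC-adjusted fit (limma adjusted p = 0.966). The other, CXCL2, at -0.14 (limma adjusted p = 0.0467), was called in the GC-adjusted fit at -0.37 but lost its call in 8 other alternatives, 5 of them with 1 library left out. SLC22A17, a receptor for LCN2, stood at 1.36 ± 0.155 FPKM in TBOEP and 1.63 ± 0.074 FPKM in DMSO (n = 3 per group; limma adjusted p = 0.0873).

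CST3 (ENSG00000101439), the inhibitor of cysteine cathepsins, fell. It stood at 84.7, 86.4 and 87.4 FPKM in TBOEP, against 103, 104 and 97.9 FPKM in DMSO libraries. All TBOEP libraries lay below all DMSO libraries, and the mean fell by 15.1%. Its log2 fold change was -0.23 ± 0.03 (SE; limma adjusted p = 0.000301), and -0.40 in the GC-adjusted fit. Its intracellular relative CSTB stood at 41.6 ± 0.94 FPKM in TBOEP and 39.6 ± 2.11 FPKM in DMSO (SD, n = 3 per group; limma adjusted p = 0.205).

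Of 6 cathepsins within the list of partners, 4 were tested and called higher, where 26.9% of all tested genes were called up. They were picked out of that list after their values were seen and have no test as a group. CTSL, a lysosomal protease, stood at 16.6 ± 0.787 FPKM in TBOEP and 7.78 ± 0.546 FPKM in DMSO, a rise of 1.01 ± 0.06 in log2 units (SE; adjusted p = 2.22e-06 by limma). CTSH rose by 0.44 ± 0.05 (limma adjusted p = 9.18e-05). CTSC, which activates serine proteases, rose by 0.44 ± 0.05 (limma adjusted p = 0.000104) and by 0.25 in the GC-adjusted fit. CTSS stood at 1.33 ± 0.0269 FPKM in TBOEP and 0.563 ± 0.0863 FPKM in DMSO. Its ratio of means was 2.36, above that of CTSL at 2.14, while its rise of 0.58 on log2(FPKM + 1) understates the change at so low a level (limma adjusted p = 0.000142). CTSB was listed at 0.476 ± 0.087 FPKM in TBOEP and 0.374 ± 0.0453 FPKM in DMSO, below the filter. This is low for a protease that most cells express, and since the counting of its reads could not be checked, nothing is drawn from it. These genes belong to a list of 32 receptors, ligands and protease partners of the markers, of which 17 were tested: 7 rose, 2 fell and 8 were not called, with a median of 0.046. In that list 52.9% of tested genes were called, against 53.8% of all tested genes.

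CLU (ENSG00000120885), an extracellular chaperone that rises in injured tubules, was not called. It stood at 2.55, 2.86 and 2.32 FPKM in TBOEP, against 2.999, 2.78 and 2.57 FPKM in DMSO libraries, which overlapped. The log2 fold change was -0.081, with an interval of -0.25 to 0.088 (limma adjusted p = 0.384), which holds a fall of the size seen in CST3. The GC-adjusted fit called CLU lower, at -0.23 (limma adjusted p = 0.0252).

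**Figure D2:**
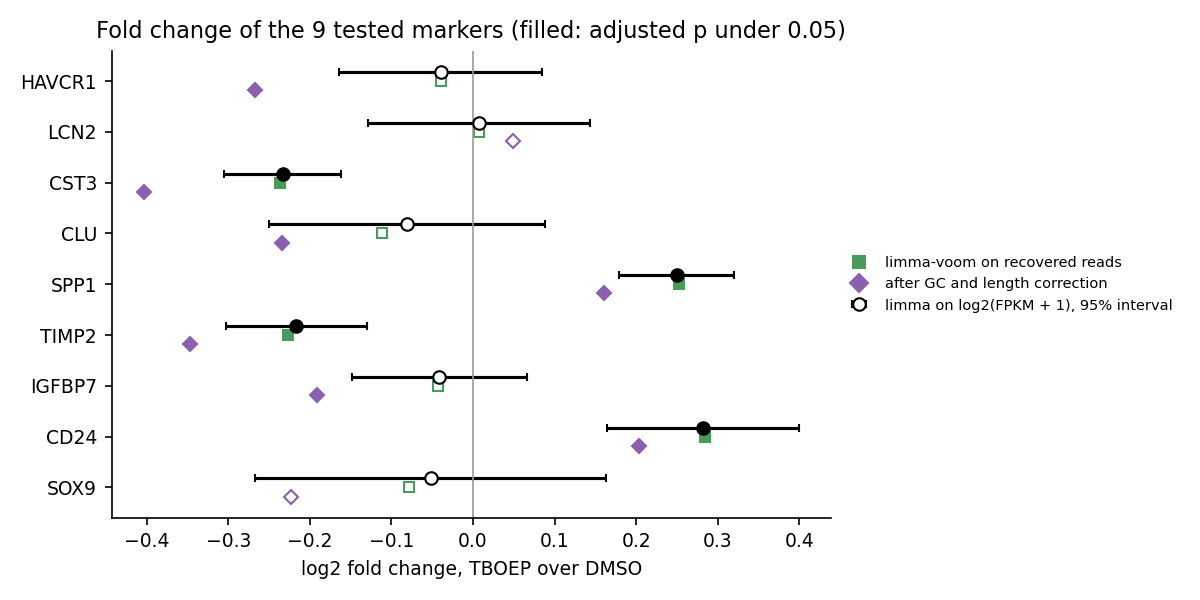
Log2 fold change, TBOEP over DMSO (horizontal axis), of the 9 tested markers by limma on log2(FPKM + 1) with its 95% interval (black), by limma-voom on recovered reads (green) and in the GC-adjusted fit (violet); filled symbols are called at an adjusted p under 0.05. SPP1 and CD24 lie right of 0 and CST3 and TIMP2 left of 0 in all 3, while HAVCR1, CLU and IGFBP7 are filled only in the GC-adjusted fit.

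SPP1 (ENSG00000118785), a secreted matrix and signalling protein that binds integrins and CD44, rose. Its level was 72.7, 73.6 and 72.5 FPKM in TBOEP, against 60.6, 59.7 and 63.3 FPKM in DMSO libraries. The TBOEP libraries lay close together, all above the DMSO libraries, and the mean was 19.2% higher. The log2 fold change was 0.25 ± 0.03 (SE; limma adjusted p = 0.000176), and 0.16 in the GC-adjusted fit. Of its receptors, the integrin subunit ITGB5 rose by 0.27 ± 0.03 in log2 units (adjusted p = 0.000133 by limma), to 25.4 ± 0.336 FPKM in TBOEP, against 20.8 ± 0.208 FPKM in DMSO (SD, n = 3 per group). ITGB5 was at 0.16 in the GC-adjusted fit. ITGB3 rose by 0.34 ± 0.04 (limma adjusted p = 0.000172), by 0.20 in the GC-adjusted fit, and ITGAV, which pairs with both, fell by 0.27 (SE 0.05; limma adjusted p = 0.00195). CD44 stood at 26.6 ± 0.427 FPKM in TBOEP and 25.2 ± 0.825 FPKM in DMSO libraries (n = 3 per group; limma adjusted p = 0.117).

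TIMP2 and IGFBP7 did not share a call. TIMP2 (ENSG00000035862), an inhibitor of matrix metalloproteinases, stood at 21.3, 21.5 and 21.2 FPKM in TBOEP, against 25.6, 25.5 and 23.9 FPKM in DMSO libraries. The groups were apart, with DMSO replicate 3 the nearest to TBOEP, and the mean fell by 14.5%. TIMP2 had a log2 fold change of -0.22 ± 0.04 (SE; limma adjusted p = 0.00134), and of -0.35 in the GC-adjusted fit. IGFBP7 (ENSG00000163453), a secreted protein that binds insulin-like growth factors, stood at 268, 268 and 287 FPKM in TBOEP, against 297, 285 and 265 FPKM in DMSO libraries. These overlapped, with the lowest value in DMSO replicate 3, and the log2 fold change of -0.041 had an interval of -0.15 to 0.066 (limma adjusted p = 0.485). IGFBP7 was called lower in the GC-adjusted fit, at -0.19 (limma adjusted p = 0.00841). Exons of IGFBP7 overlap those of POLR2B on the other strand, which had at most 5.64 FPKM, and whether reads were counted by strand is not stated.

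Because both proteins are read in urine as a product, the product of their FPKM was taken in each library, as a description with no test. It was 5710, 5766 and 6093 in TBOEP, against 7621, 7258 and 6318 in DMSO libraries, a difference of means of -17.1%. The TBOEP values all lay below the DMSO values, with the narrowest gap between TBOEP replicate 3 and DMSO replicate 3.

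Relatives of these inhibitors did not move as one. TIMP1, which inhibits many of the same proteases, stood at 238 ± 4.32 FPKM in TBOEP and 232 ± 7.73 FPKM in DMSO (n = 3 per group; limma adjusted p = 0.363), above TIMP2 in FPKM. MMP14, the membrane protease that forms a complex with TIMP2, stood at 47.8 ± 0.498 FPKM in TBOEP and 50.1 ± 0.949 FPKM in DMSO, and MMP2, the third partner of that complex, at 0.0083 ± 0.0072 FPKM in TBOEP and 0.0037 ± 0.0064 FPKM in DMSO. IGFBP3, the main carrier of insulin-like growth factors in blood, rose by 0.65 ± 0.02 in log2 units (SE; adjusted p = 2.86e-07 by limma). IGFBP6, which prefers IGF2, fell by 0.55 (limma adjusted p = 1.56e-06), and by 0.25 in the GC-adjusted fit. IGFBP4 fell by 0.18 (limma adjusted p = 0.0216) and the transcription factor SOX12 by 0.12 (limma adjusted p = 0.0223). Both calls were lost in the GC-adjusted fit, where IGFBP4 was at 0.046 (limma adjusted p = 0.511) and SOX12 at 0.038 (limma adjusted p = 0.39). They were also lost with no filter and in the fits without TBOEP replicate 2 or without DMSO replicate 1. The call of IGFBP4 was lost by limma-voom and without TBOEP replicate 3 as well, and that of SOX12 without TBOEP replicate 1. Over the list of 36 family relatives, 12 were tested, of which 2 rose, 3 fell and 7 were not called, with a median of 0.025. That is 41.7% called, against 53.8% of all tested genes.

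**Figure D3:**
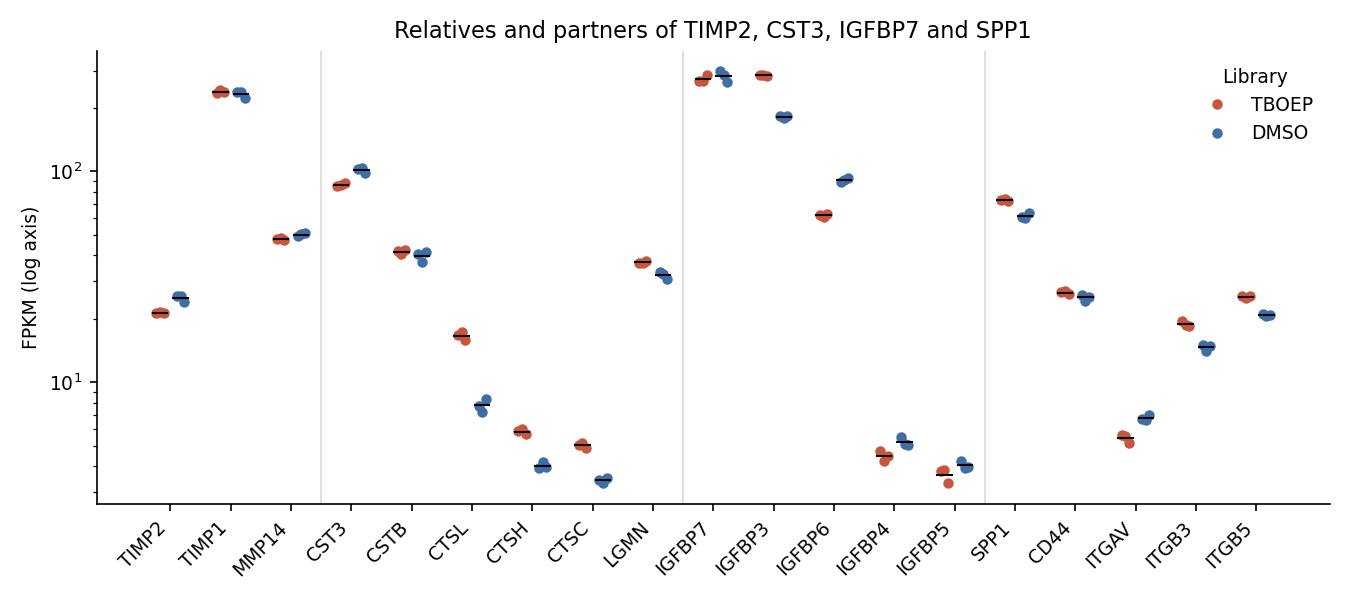
FPKM (log axis) in each library of relatives and partners of TIMP2, CST3, IGFBP7 and SPP1, grouped by vertical lines; points are libraries, TBOEP in red and DMSO in blue, and bars are means of 3. CTSL lies higher in TBOEP (mean of 16.6 FPKM, against 7.78 FPKM in DMSO) while CST3 lies lower, and IGFBP3 lies higher in TBOEP while IGFBP6 lies lower.

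CD24 (ENSG00000272398), a small glycoprotein of the cell surface carried by tubular progenitor-like cells, rose. It stood at 59.2, 57.8 and 61.8 FPKM in TBOEP, against 49.5, 45.2 and 52.0 FPKM in DMSO libraries. The groups were apart, and the mean was 21.8% higher in TBOEP. The log2 fold change was 0.28 ± 0.05 (SE; limma adjusted p = 0.00175), and 0.20 in the GC-adjusted fit. CD24 has processed pseudogenes of closely related sequence, 2 of which had rows with at most 0.253 and 2.95 FPKM, so the share of reads given to CD24 is uncertain. SIGLEC10, a receptor of CD24 on leukocytes, stood at 0.0548 ± 0.0304 FPKM in TBOEP and 0.0427 ± 0.0251 FPKM in DMSO.

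SOX9 (ENSG00000125398), a transcription factor switched on in tubule cells that regenerate after injury, was low and was not called. It stood at 1.16, 1.12 and 0.954 FPKM in TBOEP, against 1.16, 1.41 and 0.902 FPKM in DMSO libraries. The DMSO libraries held both the highest and the lowest value. With 122 to 186 reads in a library, the log2 fold change of -0.052 had an interval of -0.27 to 0.16 (limma adjusted p = 0.669), which holds a fall of the size seen in CST3. It was at -0.22 in the GC-adjusted fit (limma adjusted p = 0.0788).

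The TBOEP libraries varied least, by their coefficient of variation (SD over mean), in TIMP2 and SPP1. It was 0.739% in TBOEP and 3.89% in DMSO libraries for TIMP2, and 0.804% in TBOEP and 3.03% in DMSO libraries for SPP1. Libraries of both groups varied most among tested markers in CLU, at 10.6% in TBOEP and 7.72% in DMSO, and in SOX9, at 9.999% in TBOEP and 22% in DMSO. TBOEP replicate 3 was the lowest TBOEP library in HAVCR1, LCN2, CLU, SOX9, SPP1 and TIMP2 and the highest in IGFBP7, CST3 and CD24. Without it the log2 fold change of HAVCR1 was 0.018.

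The markers differ in the GC content of their transcripts, from 41.2% in SPP1 and 41.7% in CD24 to 56.1% in LCN2, and fold changes of all tested genes moved with GC content. The median log2 fold change was 0.15 over 882 genes with 45 to 47.5% GC, the range that holds HAVCR1 (46.9%) and CST3 (45.9%). It was 0.13 over 829 genes with 50 to 52.5%, the range of SOX9 (51%), CLU (51.7%) and IGFBP7 (52.1%), and -0.30 over 111 genes with 67.5 to 70%. The GC-adjusted fit takes this trend out in each library. It called 7 of 9 tested markers, 2 up and 5 down, where 47.8% of all tested genes with known GC content were called, 22.5% up and 25.3% down. With the gene length recovered from the values in place of the transcript length, an alternative chosen after the data were seen, 7 markers were called, against 48.2% of genes. With the replicate number as a block, 4 markers and 49.7% of genes were called in the unadjusted fit, and 7 markers and 44% of genes in the GC-adjusted fit. What gave rise to the trend was not tested.

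**Figure D4:**
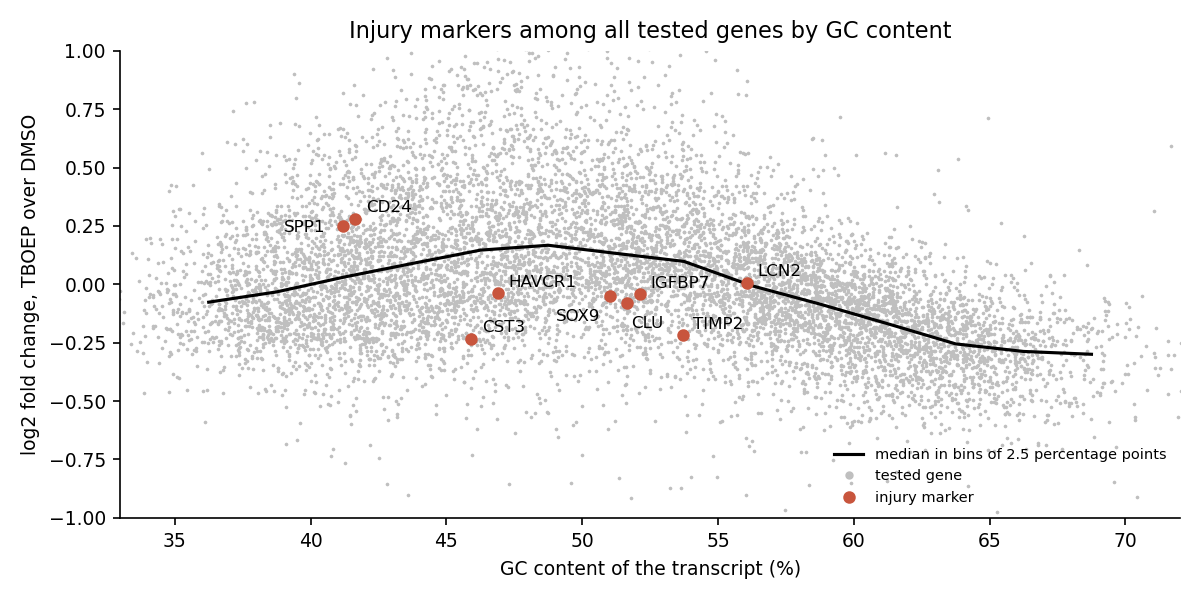
Log2 fold change, TBOEP over DMSO (vertical axis), against GC content of the transcript in percent (horizontal axis); grey points are tested genes, the black line is their median in bins of 2.5 percentage points, and red points are the 9 tested markers. HAVCR1, CST3, SOX9, CLU, IGFBP7 and TIMP2 lie below the line, SPP1 and CD24 above it; 140 genes lie outside the axes.

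Other genes of tubular injury and repair moved in both directions. Of 38 listed, 32 were tested, 12 rose, 10 fell and 10 were not called, with a median of 0.031 and 68.8% called, against 53.8% of all tested genes. IL18, a cytokine of the inflammasome measured in urine after injury, stood at 6.92 ± 0.259 FPKM in TBOEP and 3.19 ± 0.392 FPKM in DMSO (SD, n = 3 per group), a rise of 0.92 ± 0.07 in log2 units (SE; adjusted p = 1.39e-05 by limma). VIM, the intermediate filament of dedifferentiated tubule cells, rose by 0.34 ± 0.03 (limma adjusted p = 1.28e-05), and by 0.24 in the GC-adjusted fit. KRT8, an epithelial keratin, fell to 273 ± 2.78 FPKM in TBOEP, against 338 ± 5.1 FPKM in DMSO, or by 0.31 in log2 units (adjusted p = 1.64e-05 by limma) and by 0.19 in the GC-adjusted fit. Keratins of the list did not move as one. KRT18 rose by 0.22 ± 0.03 (SE; limma adjusted p = 0.000353), and by 0.41 in the GC-adjusted fit. KRT7 fell by 0.28 and KRT19 by 0.19. Both calls were lost in the GC-adjusted fit, at -0.024 for KRT7 (limma adjusted p = 0.471) and 0.049 for KRT19 (limma adjusted p = 0.105). GSTP1, a glutathione transferase, fell by 0.44 in log2 units (adjusted p = 1.5e-05 by limma), by 0.17 after quantile normalization and by 0.13 in the GC-adjusted fit.

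**Figure D5:**
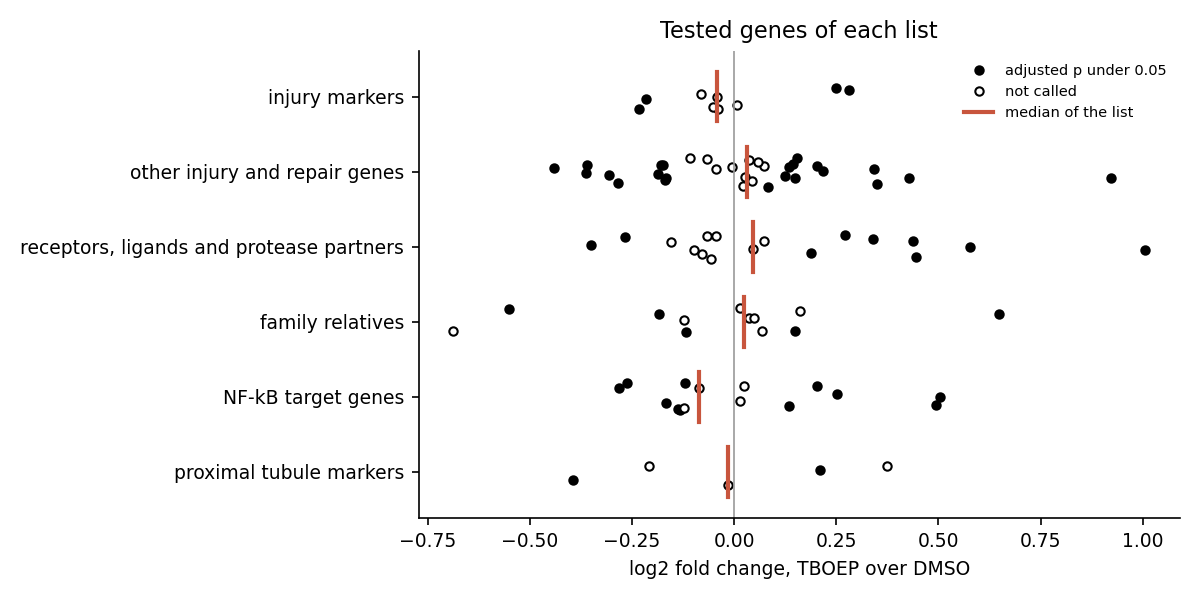
Log2 fold change, TBOEP over DMSO (horizontal axis), of the tested genes among the injury markers and in 5 lists (other injury and repair genes, partners, family relatives, NF-kB targets and proximal tubule markers); filled points are called at a limma adjusted p under 0.05, open points are not, and red bars are medians. Each of these 6 holds called genes on both sides of 0, and their medians lie between -0.086 and 0.046.

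Of the proximal tubule markers 5 were tested, of which MIOX fell and ASS1 rose. MIOX, a renal enzyme of inositol breakdown, fell by 0.40 in log2 units (adjusted p = 0.00178 by limma), a call lost in the GC-adjusted fit at -0.15 (limma adjusted p = 0.0796). ASS1, an enzyme of arginine synthesis, rose by 0.21 ± 0.05 (SE; limma adjusted p = 0.00943). ALPL, alkaline phosphatase of the brush border, had a log2 fold change of -0.21 ± 0.09 (limma adjusted p = 0.0703) and was called without DMSO replicate 3 and, at -0.27, with median centring (limma adjusted p = 0.0282). It was at -0.083 in the GC-adjusted fit (limma adjusted p = 0.431). The summed level of the listed markers was 73.5 to 78.9 FPKM in TBOEP and 75.8 to 77.4 FPKM in DMSO libraries.

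Markers of other cell types were sparse. Of 7 endothelial markers only EGFL7 reached 1 FPKM, and their sum was 25.0 to 27.2 FPKM in TBOEP and 33.8 to 35.2 FPKM in DMSO libraries, while PECAM1 and CDH5 stayed under 0.02 FPKM on average in both groups. EGFL7 had a log2 fold change of -0.39 (limma adjusted p = 5.16e-05), a call lost in the GC-adjusted fit at -0.070 (limma adjusted p = 0.121). Of 8 fibroblast markers only COL1A1 reached 1 FPKM, with sums of 22.7 to 22.9 FPKM in TBOEP and 26.8 to 29.6 FPKM in DMSO. COL1A1 had a log2 fold change of -0.30 (limma adjusted p = 0.000483), and of -0.20 in the GC-adjusted fit (limma adjusted p = 0.0027). It was called in all 17 alternatives. Of 8 leukocyte markers only CSF1R reached 1 FPKM, with sums of 1.86 to 2.40 FPKM in TBOEP and 1.74 to 2.12 FPKM in DMSO, and of 6 podocyte markers only SYNPO, with sums of 9.78 to 9.93 FPKM in TBOEP and 8.93 to 10.4 FPKM in DMSO. Of 10 markers of the thick limb, distal tubule and collecting duct only 2 had a row, and neither reached 1 FPKM. Rows were present for 5 of the 7 endothelial, 5 of the 8 fibroblast, 5 of the 8 leukocyte and 4 of the 6 podocyte markers. A marker with no row has no measured level here. The part of other cell types in the results on the injury markers was not tested.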

How the data were processed

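The values deposited by the authors are FPKM per gene and library. The header names no unit, and FPKM was inferred from the values, which within a gene are whole multiples of 1 step once each library has 1 factor. The submitters' processing notes list Trimmomatic and HISAT2. For the counter, genome build, annotation and strand the entry is: not given in the sources used here. Per the labels' protocols, TRIzol was used for extraction, and more than 1 library kit is named. Whole reads were recovered within 0.01 reads for 25808 genes, and 2569 of 11787 recovered lengths (genes over 300 reads) equalled the merged exon length in GENCODE 29. Symbols matched 25795 gene IDs. In GENCODE 29, exons of IGFBP7 overlap those of POLR2B (at most 5.64 FPKM) and of IGFBP7-AS1 (at most 0.0306 FPKM) on the other strand, and TIMP2 exons overlap those of CEP295NL (at most 0.157 FPKM).

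Differences were tested two-sided with limma 3.58.1 in R 4.3.3, with trended, robust moderation on log2(FPKM + 1) and no covariate, for genes that reached 1 FPKM in 3 or more libraries, with Benjamini-Hochberg adjustment over 9631 genes. The alternatives were a pseudocount of 0.1, no filter, a filter at 5 FPKM, quantile normalization, median centring, no robust moderation, the replicate number as a block, limma-voom on recovered reads, each library left out, and the GC-adjusted fit (mgcv 1.9.3), which takes from each library a smooth surface over the principal transcript's GC content and length. The fit and the read recovery were also run on simulated data. For the fit these had a set spread, few changed genes and no GC trend, and its behaviour under such a trend was not tested. The chi-square per degree of freedom between replicates of a group was 7.73 to 9.38, above sampling noise, and each library counted as 1 sample.

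The markers and gene lists were chosen with earlier results of these data known. All 10 markers are named, and of every other list up to 4 tested genes with the smallest p, of which 1 is not reported here; relatives and partners of a marker are named for their level.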

Additional observations from a re-analysis of the deposited data

How the results depend on the processing

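SPP1 and CD24 were called higher and CST3 and TIMP2 lower in every alternative run. The count of called markers was 4 in each alternative except the GC-adjusted fits (with or without the replicate block, and with the recovered gene length), where it was 7; HAVCR1, CLU and IGFBP7 were added, all lower. The cause was not tested. LCN2 and SOX9 were not called in any alternative. Their signs and that of HAVCR1 were not stable: LCN2 was at -0.056 after quantile normalization and -0.052 with median centring, and leaving out 1 library gave -0.036 to 0.058 for LCN2, -0.081 to 0.018 for HAVCR1 and -0.14 to 0.031 for SOX9. Leaving out 1 library gave 4 called markers each time and 4556 to 4774 called genes.

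With the replicate number as a block, 4 markers and 4791 genes were called. The pairing is by number alone: the deviations of same-numbered libraries from their group means correlated at 0.105, -0.0331 and 0.00725 over 9631 genes, and the reported fit has no block. TBOEP replicate 2 correlated best with DMSO replicate 3. Of 5178 called genes, 2592 were up and 2586 down; with median centring 2115 were up and 3370 down. The lists' genes beyond the injury markers and the cell type markers gave 44 calls among 70 tested, against 5178 of 9631 genes. In the alternatives their calls ran from 31 of 100 with no filter to 47 of 70 with median centring. Over all genes these 2 alternatives called 4105 of 25808 and 5485 of 9631. CLU and SOX9 could not be fitted under the filter at 5 FPKM, which they do not reach. Depth limits VCAM1, with 22 to 50 reads in a library.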
